A study of Rattus norvegicus with 10 samples.

Results

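Oxidative phosphorylation is described here through 120 of the 32623 rows of a rat gene table, chosen by name alone. These are the 13 protein genes of the mitochondrial genome (Mt-nd, Mt-co, Mt-cyb and Mt-atp) and 107 nuclear rows whose names begin with Nduf, Uqcr, Atp5 or Cox followed by a digit, or are Sdha, Sdhb, Sdhc or Sdhd. RNA had been sequenced from the supraoptic nucleus of the hypothalamus in male Sprague Dawley rats of 250 to 300 g, with 5 shControl and 5 shOpn3 samples. Each rat had received an adeno-associated virus carrying a short hairpin RNA against Opn3, an opsin made outside the eye as well as in it, in the nucleus of one side, and the same kind of virus with a hairpin that is non-targeting in the opposite one. The control nuclei were therefore also infected and injected. Nuclei were collected 2 weeks later as 1 mm punches from coronal sections of 100 µm and extracted singly. The promoter that drove the hairpins, and so the cells that made them, is not given in the sources used here, and a punch holds every cell type of the nucleus and some tissue around it.

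Oxidative phosphorylation takes place in the inner mitochondrial membrane. Complexes I and II pass electrons from NADH and succinate to coenzyme Q, complex III passes them to cytochrome c, and complex IV to oxygen, while complexes I, III and IV pump protons and complex V, the ATP synthase, uses the proton gradient to make ATP. Complex II is encoded wholly in the nucleus, and the other complexes combine subunits of both genomes: the catalytic or proton-pumping core is partly mitochondrial, and the many accessory subunits are nuclear. Magnocellular neurons of the supraoptic nucleus make and secrete vasopressin and oxytocin, and neurons in general depend on oxidative phosphorylation for most of their ATP.

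The samples held 33158341 to 39958578 reads in genes. Opn3 averaged 704 ± 277 normalized counts (reads divided by the size factor of the sample) in shControl and 188 ± 59.7 in shOpn3 (SD, n = 5), a log2 difference of -1.82 (limma, adjusted p = 0.00226), although shControl replicate 5, at 261, lay below shOpn3 replicate 1, at 290. Avp and Oxt, which mark magnocellular neurons, were present in every sample and lower in shOpn3, with log2 differences of -2.35 and -2.21. Samples of replicate numbers 1 and 5 stood apart from numbers 2 to 4 in both groups for many genes, and shControl replicates 1 and 5 received the lowest weights, 0.331 and 0.342, when samples were weighted by their spread. The count of nuclear genes called and the differences of the mitochondrial genes are therefore also given without both samples of these numbers.

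Nuclear genes of oxidative phosphorylation were lower in shOpn3, by small amounts and across all complexes, and none was called higher. Of 98 nuclear rows with a mean of at least 10 normalized counts, 21 (21.4%) fell (limma on log2(normalized count + 1), Benjamini-Hochberg adjusted p under 0.05 over 15597 genes), while 8.48% of all genes tested fell and 10.4% rose. The estimate was negative for 96 of 98 rows, as it was for 53.0% of all genes, and the median log2 difference was -0.23 against -0.02 for all genes. In these punches of mixed tissue, fewer cells of a type and less RNA per cell cannot be told apart. The 21 rows that fell kept 72.1% to 86.2% of the control mean, with a median log2 difference of -0.34. None reached -0.5, whereas 628 of the 1322 genes that fell in the whole table did. Genes of 1 complex are not independent measurements, since all rows come from the same 10 samples.

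The 13 mitochondrial protein genes showed no such shift. None was called in either direction, against 18.8% of all genes, none had an unadjusted p under 0.05, and the lowest adjusted p was 0.661 in limma. The counts called by edgeR and by DESeq2 were also 0. Their median log2 difference was 0.04, and the values ran from -0.12 for Mt-cyb to 0.08 for Mt-co2. The standard errors were 0.129 to 0.202, larger than the median of 0.105 for the nuclear rows, and the 95% intervals of all 13 genes included the nuclear median of -0.23. A shift of the size seen in the nuclear genes was therefore not detectable for a single mitochondrial gene.

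**Figure D1:**
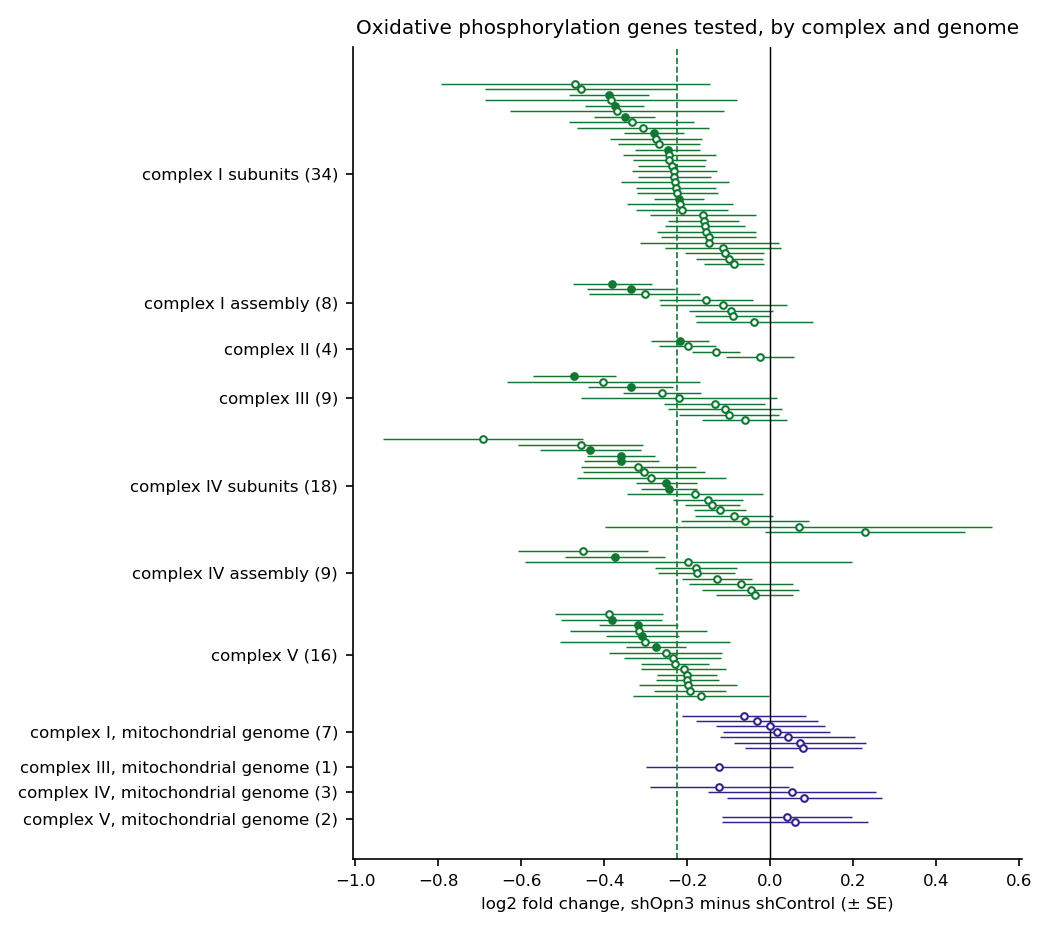
Log2 difference (shOpn3 minus shControl) of each tested gene, by complex and genome, on the horizontal axis; bars are ± SE. Nuclear genes are green, mitochondrial genes purple, filled points passed the test and the dashed line is the nuclear median of -0.23. The 21 filled points are all nuclear and all below 0, and the 13 mitochondrial points lie between -0.12 and 0.08 with bars that cross 0.

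The share of reads shows the same contrast per sample. Nuclear members took 1.08, 1.08, 1.04, 1.05 and 1.01% of reads in shControl replicates 1 to 5 and 0.964, 1.02, 0.927, 0.881 and 0.959% in shOpn3 replicates 1 to 5. The share was lower in shOpn3 in 5 of 5 pairs of equal number, and shOpn3 replicate 2 alone reached the range of the controls. Mitochondrial members took 7.58, 9.46, 11.1, 11.5 and 8.33% in shControl and 8.55, 11.0, 11.1, 9.92 and 9.67% in shOpn3. These groups overlapped broadly, and shOpn3 was the lower in 2 of 5 pairs. The ratio of mitochondrial to nuclear reads was 9.14 ± 1.67 in shControl and 10.6 ± 1.17 in shOpn3 (SD, n = 5), and was higher in shOpn3 in 5 of 5 pairs although the groups overlapped.

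**Figure D2:**
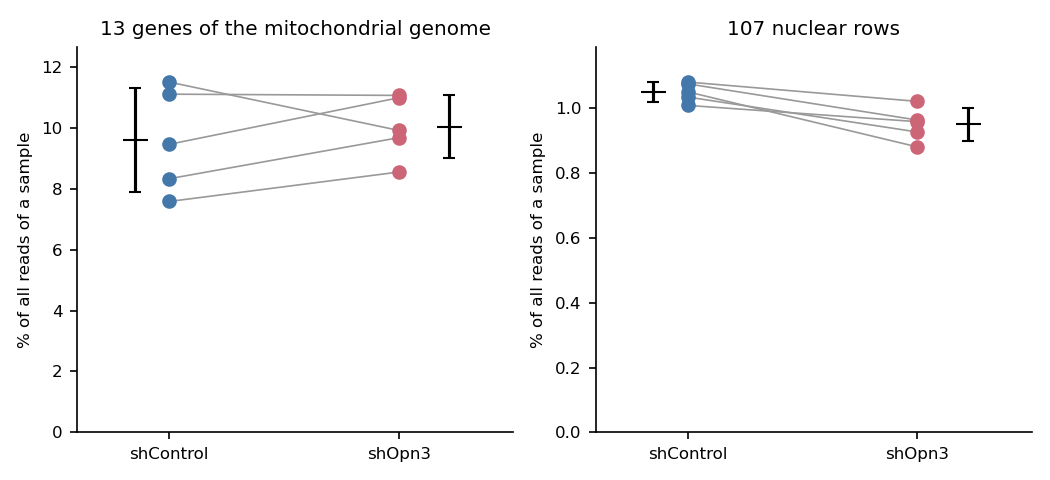
Share of all reads in genes (%) taken by mitochondrial (left) and nuclear (right) members in each sample; lines join samples of equal replicate number and black bars are the mean ± SD of 5 samples. The nuclear share falls along every line, from a mean of 1.05 to 0.951%, and the mitochondrial share does not move in 1 direction.

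The nuclear fall was also present pair by pair. The median log2 difference over the 98 nuclear rows was -0.23, -0.09, -0.27, -0.36 and -0.18 in pairs 1 to 5. Over the 13 mitochondrial genes it was 0.08, 0.27, -0.12, -0.33 and 0.18. Thus pair 2 gave the smallest nuclear difference and pair 4 the largest, and the sign of the mitochondrial difference changed from pair to pair. Of the nuclear rows, 58 of 98 (59.2%) were lower in 5 of 5 pairs, including all 21 that fell, against 20.7% of all genes. In 13 of 98 (13.3%) the groups did not overlap and shOpn3 was lower, against 7.23% of all genes, and in 0 was it higher, against 8.03%.

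**Figure D3:**
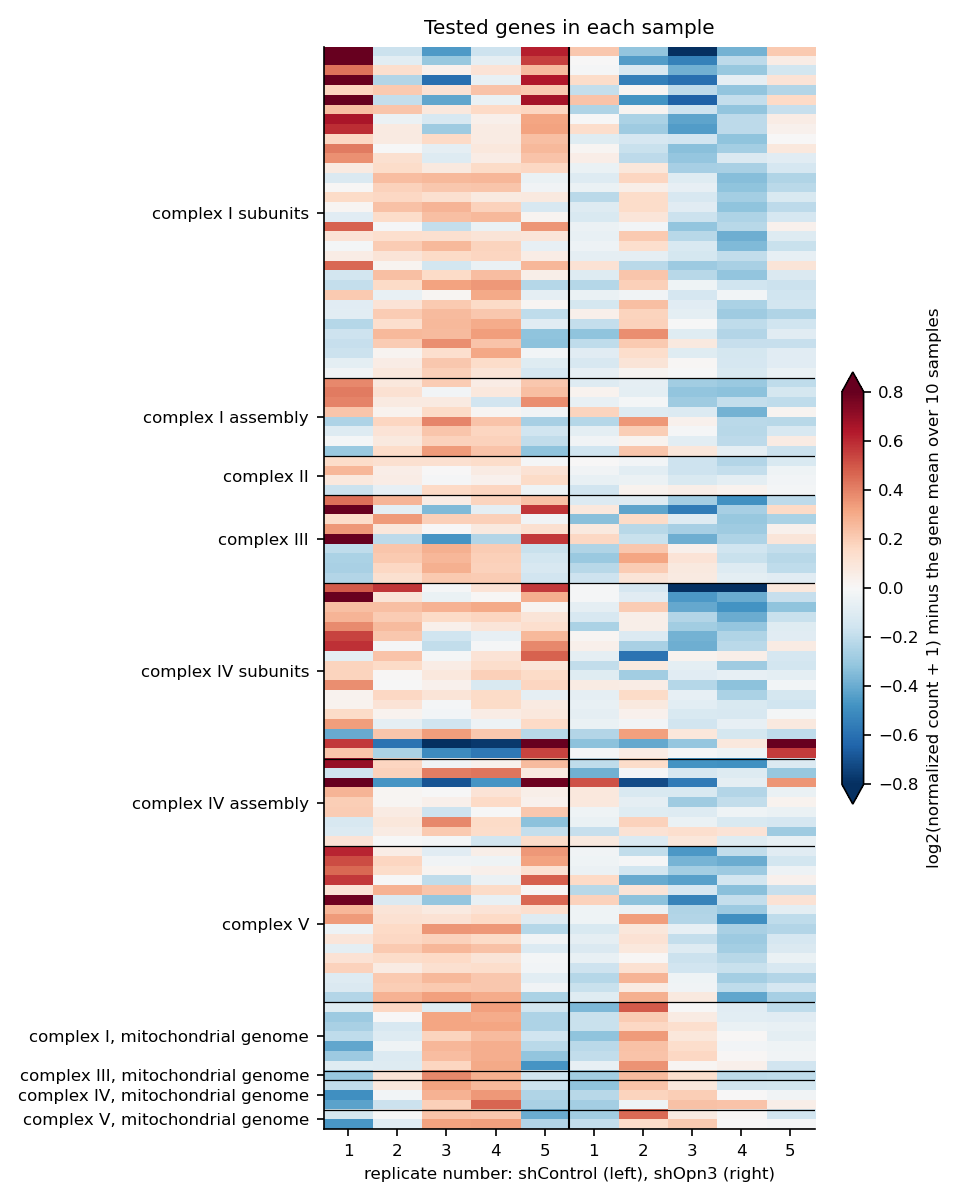
Log2(normalized count + 1) of each tested gene (rows, by complex and genome) in each sample (columns, shControl 1 to 5, then shOpn3 1 to 5), as the difference from the mean of the gene over 10 samples; red is above and blue below that mean. Most nuclear rows are redder on the left and bluer on the right, and most mitochondrial rows, at the bottom, are blue in numbers 1 and 5 of shControl and red in numbers 3 and 4.

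The number of nuclear genes that passed varied with the fit, while none was called higher in any of 24 alternative fits. With the replicate number as a block, 43 of 98 (43.9%) were called lower and 0 higher, including all 21, against 15.2% of all genes lower and 15.1% higher. The edgeR test on recovered reads called 23 lower, against 9.04% of all genes. Leaving out shOpn3 replicate 3 left 7 of 98, where 5.26% of all genes were then called lower, which brings the members near the background. Without shControl replicate 2 there were 10 (all genes 6.37%), without shOpn3 replicate 4 also 10 (6.87%), without shControl replicate 4 there were 11 (6.47%) and without shOpn3 replicate 5 there were 12 (6.36%). Without both samples of numbers 1 and 5 there were 15, against 10.9% of all genes. Dividing by the reads outside the mitochondrial genome left 8 of 98, against 5.47% of all genes. In that scaling 853 of 3048 called genes were lower, where 1322 of 2940 were lower as deposited. It raised log2 differences in general: the median over all genes was 0.06, against -0.02 as deposited. The median over the nuclear rows was -0.15, against -0.23 as deposited. In the authors' deposited table, 28 of the 98 rows were lower at an adjusted p under 0.05 and 0 higher, against 10.9% of all genes lower.

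Promoter sequences are shown for 4 genes that fell, chosen because each stands for a different complex and holds a match to a motif of the factors best known for regulating this pathway, nuclear respiratory factor 1 (NRF1, searched as GCGC, any base and TGCGC) or the ETS family member GABP (searched as CCGGAAGT). Each run is the 250 bases before the RefSeq start in build GRCr8, on the strand of the gene, and capitals mark the match on either strand (the motifs share no overlapping match in these windows). They are Sdha (chr1:30764303-30764552, plus strand), Uqcrq (chr10:38089979-38090228, minus strand), Cox5b (chr9:46417587-46417836, plus strand) and Atp5me (chr14:1464610-1464859, plus strand).
Sdha: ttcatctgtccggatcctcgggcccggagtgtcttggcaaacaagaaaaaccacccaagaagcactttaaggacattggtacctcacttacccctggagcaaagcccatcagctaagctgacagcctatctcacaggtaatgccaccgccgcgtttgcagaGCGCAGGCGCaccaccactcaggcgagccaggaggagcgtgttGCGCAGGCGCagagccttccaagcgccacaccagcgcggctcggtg
Uqcrq: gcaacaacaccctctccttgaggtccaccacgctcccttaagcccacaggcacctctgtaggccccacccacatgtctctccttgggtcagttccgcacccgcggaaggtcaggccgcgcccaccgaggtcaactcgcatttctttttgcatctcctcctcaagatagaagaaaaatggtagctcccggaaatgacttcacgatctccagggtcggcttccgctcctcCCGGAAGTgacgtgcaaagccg
Cox5b: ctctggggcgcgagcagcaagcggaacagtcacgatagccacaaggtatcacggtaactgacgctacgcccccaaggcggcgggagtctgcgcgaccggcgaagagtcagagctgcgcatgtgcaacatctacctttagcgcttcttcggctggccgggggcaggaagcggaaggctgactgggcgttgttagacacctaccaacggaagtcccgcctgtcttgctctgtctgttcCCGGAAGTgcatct
Atp5me: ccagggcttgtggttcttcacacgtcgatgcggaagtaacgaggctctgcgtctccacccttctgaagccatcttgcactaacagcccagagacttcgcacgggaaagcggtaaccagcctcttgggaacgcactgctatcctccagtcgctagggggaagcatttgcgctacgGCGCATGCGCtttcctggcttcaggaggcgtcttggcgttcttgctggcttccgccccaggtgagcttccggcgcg
The Sdha window held 2 NRF1 matches and the Atp5me window 1, while the Uqcrq and Cox5b windows held 1 ETS match each, 22 and 14 bases before the start. Of 96 nuclear symbols tested, 84 had a window, and 25 of these (29.8%) held either motif, against 6.55% of 33469 windows of all genes. Unlike those of the members, the windows of all genes were not limited to genes tested here. The NRF1 letters were in 14 of 84 (16.7%; all genes 3.75%) and the ETS letters in 12 of 84 (14.3%; all genes 3.1%). Either motif was in 7 of 20 windows of genes that fell and in 18 of 64 windows of the other members. In the complex I subunits and assembly factors that fell, 0 of 7 windows held a match. A match of letters is a description of the window and not a binding site.

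Complex I, the NADH dehydrogenase and the largest complex, had 6 of 34 tested subunits lower, against 8.48% of all genes. The median log2 difference was -0.23, and 34 of 34 estimates were below 0. Ndufb11, an accessory subunit of the membrane arm, had 2231, 2290, 2147, 2319 and 2289 normalized counts in shControl replicates 1 to 5 and 1732, 2000, 1715, 1591 and 1680 in shOpn3 replicates 1 to 5. Every shOpn3 value lay below every shControl value, and the log2 difference was -0.37 (SE 0.0721, limma adjusted p = 0.00375). For Ndufa2, an accessory subunit of the matrix arm, the counts were 1741, 1409, 1319, 1389 and 1532 against 1279, 1175, 986, 1040 and 1162. These groups did not overlap either, with the highest values in replicate 1 of both groups and a log2 difference of -0.39 (SE 0.0971, limma adjusted p = 0.0151). Ndufa3, a further accessory subunit, fell from 2916 ± 124 to 2293 ± 205 (SD, n = 5; log2 difference -0.35, limma adjusted p = 0.00602) without overlap. Ndufb8 and Ndufb10, of the membrane arm, also fell, by 0.28 and 0.25 on the log2 scale. The core subunits Ndufs1, Ndufv1 and Ndufs7 were not called, at -0.11, -0.22 and -0.38, and with the replicate block Ndufv1 passed (limma adjusted p = 0.0159).

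Of 8 Ndufaf rows, which encode proteins that assemble complex I without remaining in it, 2 fell, against 8.48% of all genes. Ndufaf2 had 514, 417, 452, 410 and 456 normalized counts in shControl and 366, 374, 324, 320 and 341 in shOpn3. All shOpn3 values were below all shControl values (log2 difference -0.38, SE 0.0947, limma adjusted p = 0.0149). Ndufaf3 was 706 ± 84.6 and 559 ± 60.0 (SD, n = 5; log2 difference -0.33, limma adjusted p = 0.0449), a call that held in 12 of 24 alternative fits. The other 6 had estimates between -0.30 for Ndufaf8 and -0.04 for Ndufaf1.

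Complex II, succinate dehydrogenase, also belongs to the citric acid cycle and has 4 subunits. Sdha, the flavoprotein that oxidizes succinate, had 12025, 11905, 11902, 12040 and 10834.5 normalized counts in shControl and 10919, 10714, 9697, 9232 and 10014.5 in shOpn3. Only shControl replicate 5 reached the shOpn3 range, and the log2 difference was -0.22 (SE 0.0694, limma adjusted p = 0.0470), a call that held in 13 of 24 alternative fits. Sdhb, the iron-sulfur subunit, had 4025, 3473, 3365, 3506 and 3630 against 3290, 3164, 2995, 2939 and 3275. Its groups did not overlap, but the log2 difference of -0.20 did not pass (limma adjusted p = 0.0650; 0.0202 with the replicate block). The membrane anchors Sdhc and Sdhd, which bind coenzyme Q, had log2 differences of -0.13 and -0.02 (limma adjusted p = 0.146 and 0.870). Sdhc did not overlap between groups, and Sdhd did.

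In complex III, cytochrome bc1, 2 of 9 tested rows fell, against 8.48% of all genes. Uqcrb stood in 2 of the 9 rows, and neither was called. The complex III subunit Cyc1 lies outside the name rule and is counted with the electron carriers below. Uqcrq, a small accessory subunit, had 901, 802, 692, 753 and 782 normalized counts in shControl and 616, 618, 550, 475 and 575 in shOpn3. The groups did not overlap, and its log2 difference of -0.47 (SE 0.0997, limma adjusted p = 0.00629) was the largest among the members that fell. Uqcrh, the hinge protein that helps cytochrome c to dock, was 9149 ± 830 and 7281 ± 1068 (SD, n = 5; log2 difference -0.34, limma adjusted p = 0.0371), with overlap through shOpn3 replicate 2 at 9031. This call held in 12 of 24 alternative fits. The Rieske iron-sulfur protein Uqcrfs1 and the core proteins Uqcrc1 and Uqcrc2 did not pass, at -0.13, -0.26 and -0.06, and the Uqcrc1 call with the replicate block had an adjusted p of 0.00951.

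Complex IV, cytochrome c oxidase, had 5 of 18 tested subunit rows lower, against 8.48% of all genes. Cox5b, an accessory subunit on the matrix side, had 3129, 2983, 2889, 2928 and 2787 normalized counts in shControl and 2377, 2681, 2203, 1969 and 2292 in shOpn3. The groups were apart, with shOpn3 replicate 2 nearest to the controls (log2 difference -0.36, SE 0.0824, limma adjusted p = 0.00964). Cox7b, a small membrane subunit, had 5710, 5727, 5867, 5980 and 4915 against 4602, 5568, 3646, 3471 and 3877. It overlapped through shControl replicate 5 and shOpn3 replicate 2, with a log2 difference of -0.43 (SE 0.121, limma adjusted p = 0.0257). Cox6b1, which joins the monomers of the complex, stood in 2 rows. The row with more reads (ENSRNOG00000024309) was 2109 ± 203 and 1647 ± 176 (SD, n = 5; log2 difference -0.36, limma adjusted p = 0.0167). The other row (ENSRNOG00000034161) had a difference of -0.32 and did not pass (limma adjusted p = 0.138; 0.0227 with the block). Cox7a2l, which helps to join complexes III and IV, and Cox7a2l2, a row of similar name, fell by 0.24 and 0.25.

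Tissue isoforms of complex IV are described whether or not they moved. Cox4i1, the general form of its regulatory subunit, had 10602, 7045, 6184, 7023 and 9258 normalized counts in shControl and 7295, 5925, 5393, 6082 and 7410 in shOpn3. Numbers 1 and 5 were the highest in both groups, and within each number shOpn3 was lower. The log2 difference of -0.30 had an adjusted p of 0.177 in limma and of 0.00989 with the replicate block. Cox4i2, the form linked to low oxygen, was 54.2 ± 8.61 and 44.4 ± 7.42 (SD, n = 5; log2 difference -0.29, limma adjusted p = 0.302). Among the forms best known from heart and muscle, Cox7a1 was 43.9 ± 8.2 and 27.5 ± 8.38 (log2 difference -0.69, limma adjusted p = 0.0650; 0.0150 with the block). Cox6a2, of the same kind, had 48.9, 21.4, 17.3, 18.7 and 94.9 against 25.9, 24.4, 26.2, 34.8 and 72.9. Replicate 5 was the highest in both groups, and the log2 difference of 0.07 had a standard error of 0.465. Cox8b had 30 reads in all 10 samples and was not tested. The widely expressed forms Cox6a1 and Cox8a had -0.09 and -0.14 (limma adjusted p = 0.567 and 0.170), and Cox7a2 was not analysed here. Ndufa4, once counted in complex I, and its low-oxygen relative Ndufa4l2 had -0.15 and -0.18 (limma adjusted p = 0.244 and 0.487).

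The complex IV assembly rows, from heme synthesis (Cox10, Cox15) to copper delivery (Cox17, Cox19), had 1 of 9 lower, near the share of 8.48% of all genes. Cox20, a chaperone of the mitochondrially encoded subunit Mt-co2, had 1013, 1288, 1505, 1523 and 1194 normalized counts in shControl and 867, 1127, 1034, 1053 and 916 in shOpn3. The groups overlapped through shControl replicate 1, and the log2 difference was -0.37 (SE 0.120, limma adjusted p = 0.0474), a call that held in 12 of 24 alternative fits. Cox17, the copper chaperone, was -0.45 (limma adjusted p = 0.0633; 0.0196 with the block).

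In complex V, the ATP synthase, 4 of 16 tested rows fell, against 8.48% of all genes, and 16 of 16 estimates were below 0. Atp5me, a membrane subunit at the dimer interface, had 3840, 3011, 2620, 2606 and 3340 normalized counts in shControl and 2606, 2655, 2067, 2028 and 2417 in shOpn3. The groups overlapped, numbers 1 and 5 were high among the controls, and the log2 difference was -0.38 (SE 0.121, limma adjusted p = 0.0451). For Atp5po, which ties the catalytic head to the stator stalk, the counts were 5622, 5022, 4906, 5042 and 5117 against 4556, 4529, 3951, 3824 and 4414. These groups did not overlap (log2 difference -0.28, SE 0.0729, limma adjusted p = 0.0199). Atp5mc1 is 1 of 3 genes for the c subunit of the rotor ring, and it fell by 0.32 (limma adjusted p = 0.0342) without overlap. Its partners Atp5mc2 and Atp5mc3 had -0.32 and -0.24 and did not pass (limma adjusted p = 0.211 and 0.192), but with the replicate block Atp5mc2 did (adjusted p = 0.00870 in limma, lower in 5 of 5 pairs). Atp5mf, a further membrane subunit, fell by 0.31 (limma adjusted p = 0.0275). The catalytic subunit Atp5f1b and its partner Atp5f1a did not pass, at -0.21 and -0.20 (limma adjusted p = 0.188 and 0.0754). Atp5if1, which inhibits ATP hydrolysis by the complex, was 2779 ± 303 and 2367 ± 525 (log2 difference -0.25, limma adjusted p = 0.228).

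**Figure D4:**
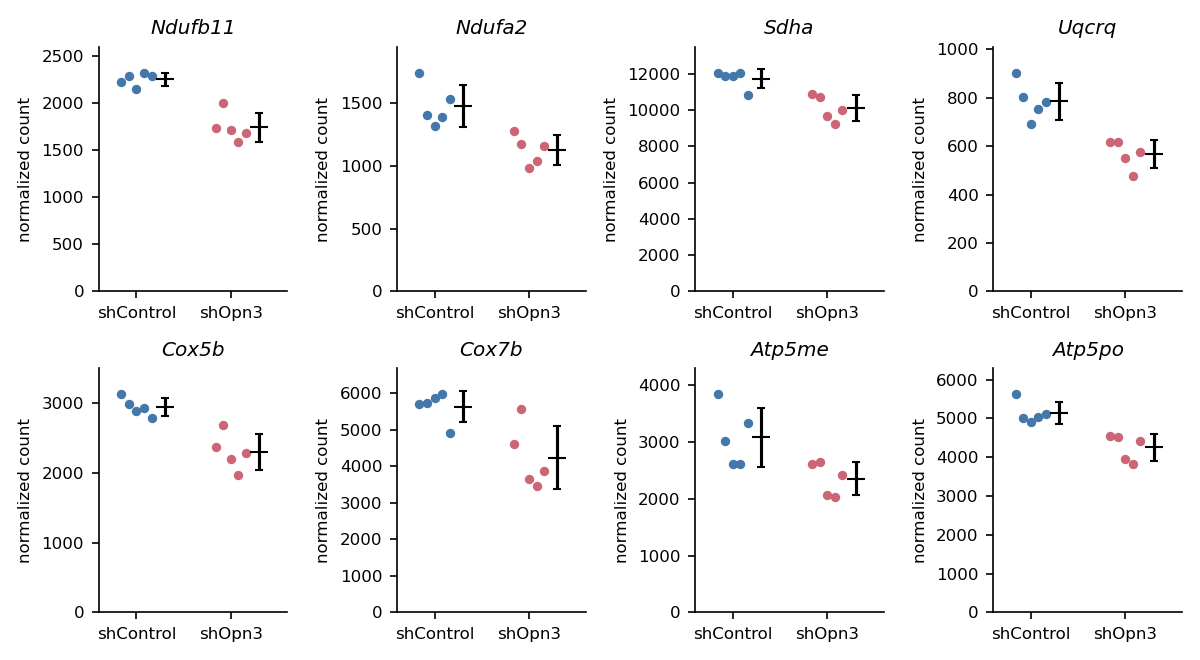
Normalized counts per sample of members that fell, shControl beside shOpn3; the vertical axes start at 0 and black bars are the mean ± SD of 5 samples. Ndufb11, Uqcrq and Cox5b show no overlap between groups, and Cox7b overlaps through 1 sample of each group.

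The calls differed in how firmly they held. Uqcrq, Ndufb11, Ndufa2 and Cox5b were called in 24 of 24 alternative fits, and Ndufa3 and Ndufaf2 in 23. Ndufb10 was called in 11, the fewest. Similar gene copies limit some rows: RefSeq lists pseudogenes for 44 of the 103 nuclear symbols, among them Ndufa2, Ndufa3, Cox7b, Cox5b and Atp5mf, and reads of those rows could have been split between copies. Of the 107 nuclear rows, 9 were below the minimum: Ndufa1, Ndufs6, Cox6c-ps1, Cox7b2, Cox8b, Cox8c, Atp5pb and the second rows of Ndufa10l1 and Ndufv3. Ndufa1 and Ndufs6 of complex I and Atp5pb of complex V encode standard subunits. They had 1, 13 and 1 reads over the 10 samples together, and where their reads were assigned was not tested.

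The mitochondrial genes encode core subunits of 4 complexes, and all 13 were tested. Mt-cyb, the only mitochondrial subunit of complex III, had 336956, 447322, 542311, 507016 and 372045 normalized counts in shControl and 342871, 495647, 457626, 359205 and 360818 in shOpn3. The groups overlapped, shOpn3 was the lower in 3 of 5 pairs, and the log2 difference was -0.12 (SE 0.177, limma adjusted p = 0.681). Mt-co1, the catalytic subunit of complex IV, ranged from 690998 to 1234650 in shControl and was 976671 ± 231433 there and 994905 ± 115926 in shOpn3 (SD, n = 5), a log2 difference of 0.05 (SE 0.202, limma adjusted p = 0.891). Mt-co2 and Mt-co3, its partners in the core, had 0.08 and -0.12. Among the complex I genes, Mt-nd1 to Mt-nd6 and Mt-nd4l, the values ran from -0.06 for Mt-nd6 to 0.08 for Mt-nd4l, and Mt-nd2, Mt-nd3, Mt-nd4 and Mt-nd5 had 0.07, 0.02, 0.00 and -0.03. The proton channel subunit Mt-atp6 and its neighbour Mt-atp8 had 0.06 and 0.04. The reading frames of Mt-atp8 and Mt-atp6, and of Mt-nd4l and Mt-nd4, overlap, so their reads are not independent. The signs were not stable: Mt-cyb, Mt-co3 and Mt-nd5 turned positive under quantile normalization, which also called Mt-nd2 higher (log2 difference 0.37, limma adjusted p = 0.0382). With both samples of numbers 1 and 5 left out, a choice made after the data were seen, the mitochondrial median was -0.06 and the differences ran from -0.20 for Mt-cyb to 0.04 for Mt-nd3. Mt-co1, Mt-nd1 and Mt-atp6 were then negative, at -0.074, -0.056 and -0.066, and Mt-nd5 and Mt-co3 were -0.14 and -0.17.

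Replicate number moved many members in both groups, in opposite ways for different genes. In 20 of 98 nuclear rows, samples 1 and 5 exceeded samples 2 to 4 in both groups, as they did for 13.6% of all genes, and 10 of these 20 were complex I subunits. Ndufa13, a complex I subunit, had 2928, 1333, 1145, 1343 and 2064 normalized counts in shControl and 1414, 1033, 969, 1221 and 1469 in shOpn3. Atp5f1d, of the rotor stalk of complex V, had 1879, 1012, 885, 1051 and 1506 against 1247, 873, 755, 960 and 1189. Both were high in numbers 1 and 5 and lower in shOpn3 within each number. The reverse order, with samples 1 and 5 below the others, held for 10 nuclear rows and for 9 of 13 mitochondrial genes, against 11.6% of all genes. Uqcrc2 showed it, with 12041, 15477, 16353, 16320 and 12704 in shControl and 12644, 15200, 14861, 13420 and 13315 in shOpn3. Mt-nd2 showed it too, with 235602, 266997, 342984, 352303 and 231467 against 252042, 338456, 323252, 290668 and 282524. Of the 22 members called only with the replicate block, 16 were of the first kind and 0 of the second. These members were chosen for this order after the data were seen. Whether samples of equal number share a rat or something else is not stated by the labels, and the correlations given below cannot establish it.

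**Figure D5:**
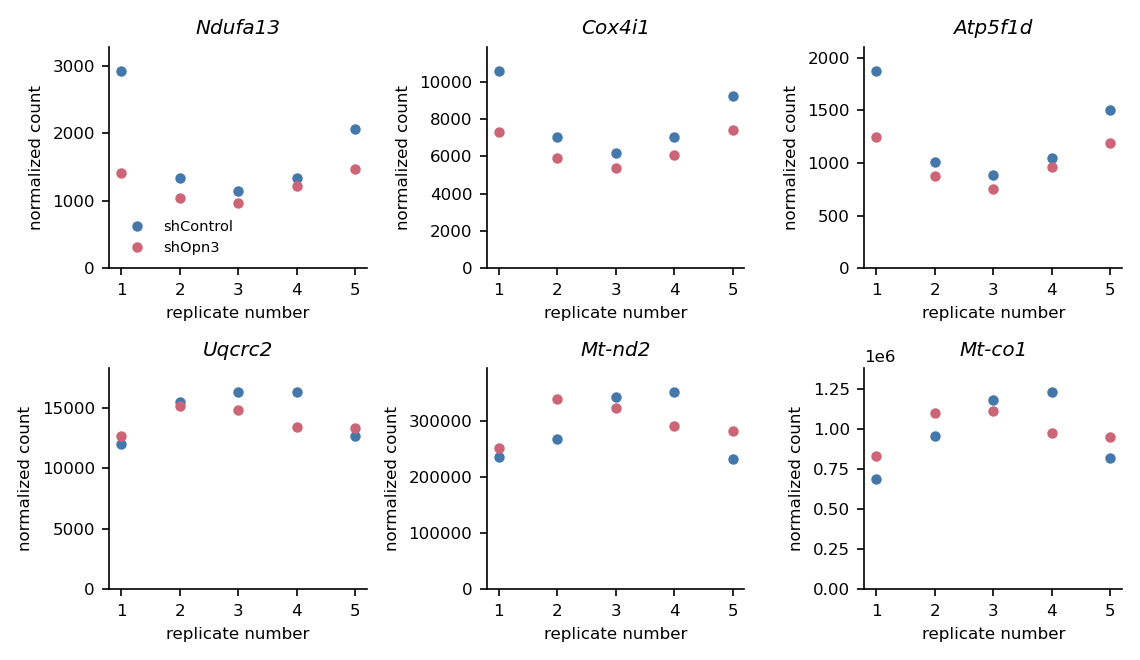
Normalized counts by replicate number for 3 nuclear genes that were highest in numbers 1 and 5 (Ndufa13, Cox4i1, Atp5f1d) and 3 genes that were lowest there (Uqcrc2, Mt-nd2, Mt-co1); the vertical axes start at 0. In the upper row shOpn3 lies below shControl at every number, and in the lower row the groups cross.

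Genes that serve the pathway outside the name rule were read from lists, whose counts stand against 8.48% of all genes lower and 10.4% higher, or 15.2% and 15.1% with the replicate block. Of 36 tested assembly factors and chaperones, 6 fell and 0 rose, with a median of -0.14, and with the block 12 were lower and 1 higher. Uqcc1, an assembly factor of complex III, had 3140, 3682.5, 3868, 3761 and 3122 normalized counts in shControl and 2676, 2664, 2319, 2213 and 2482 in shOpn3. The groups did not overlap (log2 difference -0.51, SE 0.0873, limma adjusted p = 0.00203), and Uqcc3, which works on the same complex, fell by 0.42 (limma adjusted p = 0.0370). Of 17 electron carriers and shuttles, 3 fell and 0 rose, with a median of -0.18, and with the block 7 were lower and 1 higher. The 3 included Slc25a4, an exchanger of ADP and ATP, and Coq5 of coenzyme Q synthesis, with log2 differences of -0.42 and -0.38 (limma adjusted p = 0.0149 and 0.0157). Cytochrome c itself, Cycs, was -0.31 and did not pass (limma adjusted p = 0.179).

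Of 16 citric acid cycle genes, 3 fell, against 8.48% of all genes, and 0 rose, with a median of -0.11, and with the block 4 were lower. Idh3g, a subunit of isocitrate dehydrogenase, and Mdh2, malate dehydrogenase, each had -0.32 (limma adjusted p = 0.0111 and 0.0207). Of 72 mitochondrial ribosome genes, whose products translate the mitochondrial messages, 16 fell and 1 rose, with a median of -0.19, and with the block 26 were lower and 1 higher. Mrpl12 fell by 0.50 (limma adjusted p = 0.0321). Mrps26 fell from 1783 ± 116 to 901 ± 170 (SD, n = 5; log2 difference -1.0, limma adjusted p = 0.000321). In the RefSeq order of build GRCr8 its next neighbours on one side are Oxt and then Avp, which fell as well, and a part of reads from those genes in the Mrps26 count was not tested.

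Of 16 glycolysis genes, 0 fell and 2 rose, near the share of 10.4% of all genes that rose, and the median was -0.14. Hk2, the hexokinase that binds to mitochondria, had 889, 705, 609, 668 and 840 normalized counts in shControl and 1342, 1101, 1562, 1789 and 1343 in shOpn3. All shOpn3 values exceeded all shControl values (log2 difference 0.94, SE 0.139, limma adjusted p = 0.000907). Pfkp, a phosphofructokinase, rose by 0.31 (limma adjusted p = 0.0115). With the replicate block, 4 glycolysis genes were lower and 2 higher. None of 16 genes of mitochondrial genome upkeep and expression, 11 regulators, or 13 genes of the outer membrane and import was called in limma, and their medians were -0.03, 0.00 and -0.12. With the replicate block 1 regulator was higher, Gabpb1, a subunit of GABP (log2 difference 0.26, limma adjusted p = 0.0295), and 1 import gene lower, Tomm40 of the outer membrane pore (-0.30, limma adjusted p = 0.0164). The regulators Nrf1 and Gabpa, whose motifs were searched above, and the coactivator Ppargc1a had -0.10, 0.07 and 0.23, and Tfam, which packages mitochondrial DNA, had -0.01 (limma adjusted p from 0.356 for Ppargc1a to 0.943 for Tfam).

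Markers of cell types moved in the same comparison. All 12 oligodendrocyte markers fell, with a median of -1.18 and summed normalized counts of 748370 to 1273850 in shControl and 256336 to 482981 in shOpn3. Of 12 microglia markers, 11 rose and 0 fell, with a median of 1.08 and sums of 19637 to 28320 in shControl and 34136 to 65119 in shOpn3. Astrocyte markers had 4 of 12 higher and 1 lower, with sums of 348360 to 456822 and 394074 to 539158. Neuron markers had 1 of 12 higher and 2 lower, with a median of 0.20 and sums of 152957 to 214823 and 149904 to 260415. The 2 magnocellular genes, Avp and Oxt, summed to 52511 to 158977 and 8429 to 30626. Of 8 endothelial and mural markers and 5 blood markers, 0 were called. No marker was at 0 in all samples, and the part of these cell types in the fall of the nuclear genes was not tested.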

How the data were processed

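RNA sequencing of 10 supraoptic nuclei, 5 per group, was analysed from 1 deposited table. Per the file headers and the submitters' processing notes, which name FastQC, STAR, featureCounts and DESeq2, the authors deposited a signal per gene and sample: reads divided by a DESeq2 size factor. Per the file headers it also holds the authors' log2 fold change with its standard error, a Wald score, and a p-value with its adjusted value. Genome build, annotation and strand setting are not given in the sources used here. Whole reads were recovered for 100% of values (tolerance 1e-06).

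Rows with a mean of at least 10 were tested as log2(normalized count + 1) with limma 3.58.1 (R 4.3.3; lmFit, eBayes with a trend, group only), two-sided, Benjamini-Hochberg adjusted over 15597 genes with a threshold of 0.05. This scale understates changes of low genes. On the recovered reads, edgeR 4.0.16 called 3025 genes and DESeq2 1.42.0 called 3705. The limma, edgeR and DESeq2 fits, the replicate block, quantile normalization and sample weights were tested on simulated counts. Those counts held no effect of replicate number, and the other alternatives were not simulated. The 24 alternatives changed the tool, scaling, pseudocount, filter, weights or samples, or added the replicate block.

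Per the labels' protocols, every animal contributed to both groups. Deviations of same-numbered samples correlated in all 5 pairs (r 0.12 to 0.44). For samples of different number the median was -0.21 and the range -0.45 to 0.36, which overlaps. The numbers were taken to pair samples on this basis. The labels do not state that equal numbers mark 1 rat, and the overlapping correlations cannot establish it. Whether samples of 1 group come from separate rats is read from the protocol and not from a rat label.

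Named were the 13 mitochondrial genes, up to 3 genes called in each direction per nuclear class by size of change, complex II, tissue isoforms with Atp5if1, Opn3, and up to 2 called genes per pathway list. Other genes named, as partners, regulators, block calls or for the replicate pattern, were chosen after their values were seen. A called member is not reported here by name, though the counts include it. Members and lists were chosen with earlier results of these data known. Promoter windows came from RefSeq (GRCr8), matched by symbol. No genome or protein sequence was used.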

Additional observations from a re-analysis of the deposited data

Results flagged for a closer look

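In 4 of 86 sets of 5 values examined, 1 sample stood far from the other 4 of its group, where chance alone gives about 4.3. Atp5mc1 was high in shControl replicate 1, at 2890 normalized counts against 2329 in the next sample. Cox6a2 was high in shOpn3 replicate 5, at 72.9 against 34.8. Cox7b was low in shControl replicate 5, at 4915 against 5710, and Sdha was low in the same sample, at 10834.5 against 11902. Of these 4 values, 3 belong to samples of number 5 and 1 to a sample of number 1.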

How the results depend on the processing

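The nuclear median stayed negative in all 24 alternatives (-0.26 to -0.15), and 0 nuclear members were called higher in any. The count called lower was 21. With the replicate block it was 43, with edgeR and the block 44, with sample quality weights 51, scaled to the reads outside the mitochondrial genome 8, and with single samples left out 7 to 26. Over all genes the count was 2940, and it was 4726 with the replicate block, 4777 with edgeR and the block, 5062 with quality weights, and 1973 to 3057 with single samples left out. Quantile normalization called 1 mitochondrial gene and kept 10 of the 21 nuclear calls. Leaving out both samples of numbers 1 and 5 also kept 10 and called 15. The complex II median was -0.090 under quantile normalization, -0.087 scaled outside the mitochondrial genome and -0.13 with weights, and the complex IV assembly median was -0.10 scaled outside the mitochondrial genome. In that scaling the complex I assembly median was -0.056 and that of complex III -0.14, and without numbers 1 and 5 the complex I assembly median was -0.22. Scaling outside the mitochondrial genome also moved the median over all genes, from -0.02 as deposited to 0.06. What else lay behind these changes was not tested. Of 980 values of named members and Opn3, 880 kept their side of the threshold, 84 lost it and 16 gained it. With a call in either fit, 0 reversed. Changes of sign without a call were counted as kept. With 5 samples per group, single mitochondrial genes had intervals wide enough to hold the nuclear median.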
